A study of Glycine max with 6 samples.

Results

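LOC547562 and LOC100795233 are a pair of soybean (Glycine max) genes that share the synonym KNBS1 and lie near each other on chromosome 16. They were taken by gene number (547562 and 100795233), 2 of the 41759 rows of the authors' table, and were selected on their higher FPKM in HN44 than in SN14. Leaf RNA came from 2 soybean genotypes, HN44 and SN14, with 3 libraries each. The plants of both were grown in 1 experimental field in Harbin under natural conditions. According to the series title the genotypes differ in water use efficiency; which of them is the more efficient, the age of the plants and the number of plants per library are not stated in the labels. P-values below thus compare genotypes only against the spread of these libraries, part of which may be technical.

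NBS-LRR genes encode intracellular receptors with a nucleotide-binding site and leucine-rich repeats. Such receptors detect pathogen effectors, directly or through a guarded host protein, and switch on local immunity when ADP in the binding site is exchanged for ATP. In plant genomes they often sit in clusters of similar copies, and their transcripts are often scarce in healthy leaves. Genetic maps of soybean place resistance to powdery mildew and to Phytophthora on the chromosome of this pair. Its own function was not given in the sources used here.

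Values are FPKM, the number of sequenced fragments scaled to gene length and library size, as the authors deposited them to 2 decimals, and those of a genotype are given in the order of libraries 1, 2 and 3. Between 37244 and 37939 rows had a value above 0 in a library; read totals were not used here, so the counting error of a value is not known. Leaf markers were abundant, and the seed storage gene GY3 stood at or below 0.07 FPKM. The Rubisco small subunit gene RBCS1 measured 14284, 29373 and 20115 FPKM in HN44, against 35455, 37597 and 35948 FPKM in SN14. Of the 4 leaf markers matched, RBCS1, the chlorophyll synthesis gene CHLI and the light-harvesting gene LOC100805310 were lower in each HN44 library than in any SN14 library, while CAB3 overlapped. The part of this shift in the results below was not tested. HN44-3 did not vary as a separate replicate would. It lay between HN44-1 and HN44-2 in 1911 of 1915 tested genes that averaged 5 FPKM or more over those 2 libraries and differed over 2-fold between them. HN44 means are therefore given over HN44-1 and HN44-2 (n = 2), and the HN44-3 value is printed where single libraries are listed. Each test was repeated without HN44-3. Unless a library is said to be left out, an adjusted p is from all 6 libraries, HN44-3 included. It is then not a test of the means beside it. No named row that failed the threshold with 6 libraries passed it without HN44-3.

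LOC547562 lies at chr16:29366721-29374247 on the minus strand, a span of 7527 bases. It measured 6.42, 10.56 and 8.26 FPKM in HN44, against 0.80, 0.60 and 0.78 FPKM in SN14. The genotypes did not overlap, and the lowest HN44 library was above the highest SN14 library. The means were 8.49 ± 2.93 FPKM in HN44 (SD, n = 2) and 0.727 ± 0.110 FPKM in SN14 (SD, n = 3), a ratio of 11.7. In bulk leaf RNA, fewer cells that express a gene and less of its RNA per cell cannot be told apart.

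LOC100795233 lies at chr16:29344795-29348877, also on the minus strand, and spans 4083 bases. It measured 3.88, 5.44 and 4.43 FPKM in HN44, against 0.42, 0.31 and 0.30 FPKM in SN14. The groups were again apart, with HN44-2 the highest of the HN44 libraries. The means were 4.66 ± 1.10 FPKM in HN44 (SD, n = 2) and 0.343 ± 0.067 FPKM in SN14 (SD, n = 3), a ratio of 13.6. On the log2(FPKM + 1) scale the fitted difference, HN44 minus SN14, was 2.43 ± 0.20 for LOC547562 and 2.05 ± 0.17 for LOC100795233 (SE, 6 libraries), and 2.43 ± 0.27 and 2.06 ± 0.23 without HN44-3. These differences chose the pair, so they are a description and no test is given. Reads of similar copies may be divided between the members; how alike their sequences are was not analysed here.

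**Figure D1:**
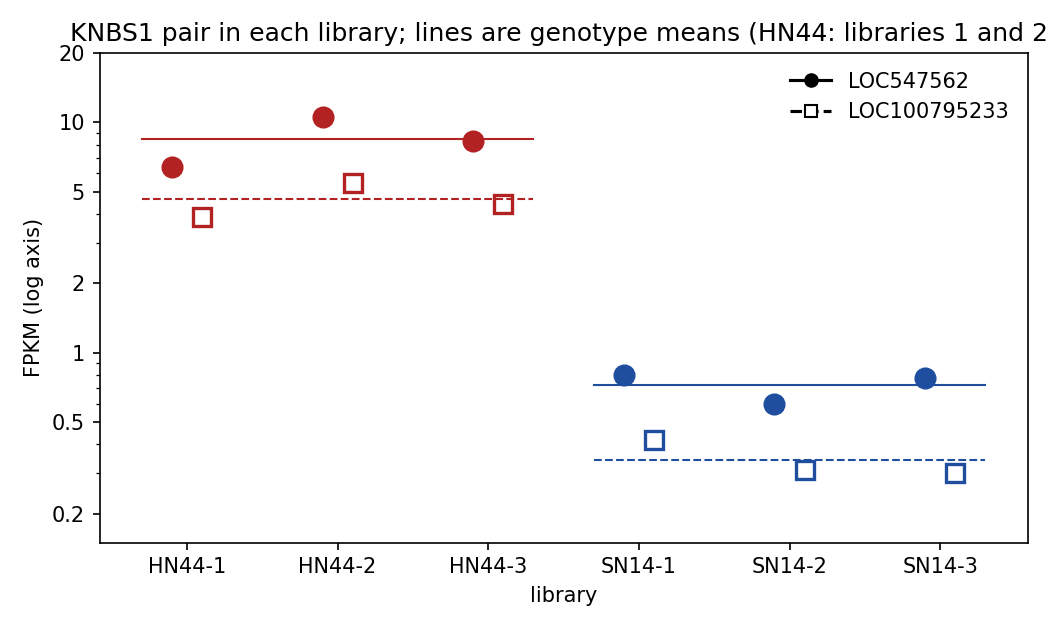
FPKM (log axis) of LOC547562 (filled circles, solid lines) and LOC100795233 (open squares, dashed lines) in each library. Lines are means over HN44-1 and HN44-2 (red) and over the 3 SN14 libraries (blue); every HN44 point lies at or above 3.88 FPKM and every SN14 point at or below 0.80.

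Placed among all rows of a library, LOC547562 was above 65.8%, 78.5% and 72.1% of them in HN44, against 33.5%, 31.3% and 34.6% in SN14. LOC100795233 was above 55.8%, 65.4% and 59.1% in the HN44 libraries, against 27.0%, 25.2% and 25.2% in the SN14 libraries. In HN44 both genes thus stood above the median row, which was between 2.41 and 2.80 FPKM, and in SN14 both stood below a median between 2.22 and 2.54 FPKM. LOC547562 was the more abundant of the pair, per length, in each of the 6 libraries. The ratio of LOC547562 to LOC100795233 was 1.65, 1.94 and 1.86 in HN44, against 1.90, 1.94 and 2.6 in SN14. These ranges overlap.

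Both genes were also higher in HN44-2 than in HN44-1, a difference the choice of the genes did not use. Log2(FPKM + 1) was 0.64 higher in HN44-2 for LOC547562 and 0.40 higher for LOC100795233, where the median tested gene had a difference of -0.19. Of 27140 tested genes, 33.4% were higher in HN44-2 than in HN44-1, and the differences of the pair exceeded those of 91.2% and 85.8% of them. The 4 leaf markers were also higher in HN44-2 than in HN44-1, CHLI for example at 176 against 78.7 FPKM. This compares 1 library with another, so it has no replicate check.

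The members are separated by 17843 bases and are not free of another model. Gene 100818489 (chr16:29344795-29418700, minus strand) begins at the same base as LOC100795233 and covers the full span of both genes, so reads of the 3 models may be divided among them. It measured 5.39, 11.88 and 7.63 FPKM in HN44, against 5.56, 5.40 and 10.90 FPKM in SN14. Here the genotypes overlapped, and the log2 fold change was 0.17 ± 0.34 (SE; limma adjusted p = 0.771). It is the only other row between or over the members, and unlike them it had HN44 values on both sides of SN14 values. Gene models also differ between annotations. In the RefSeq annotation of Glycine_max_v4.0, LOC100795233 is a longer gene whose span takes in 10 other genes, among them LOC106796447, LOC100793122, LOC100817950 and LOC106796448, which the authors' table places outside it. Gene 100818489 and its neighbour, gene 100794705, had no entry under these numbers in that annotation.

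**Figure D2:**
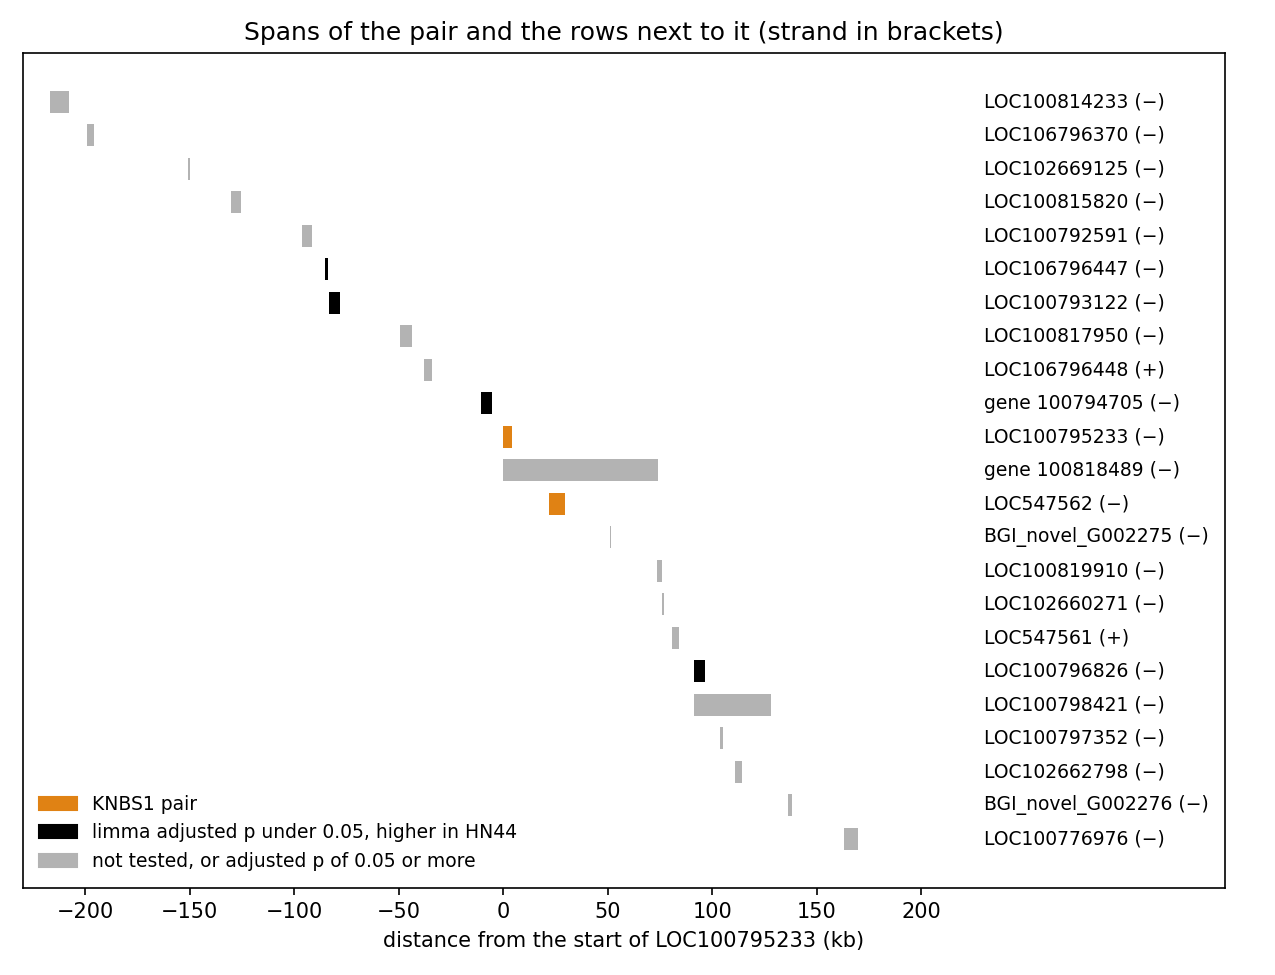
Spans of the pair (orange) and the 21 rows next to it, in order of start from top to bottom; the x axis is distance from the start of LOC100795233 in kb. Black rows passed the threshold and were higher in HN44; they lie on both sides of the pair, with grey rows among them.

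The rows next to the pair were taken by position alone: the 1 row that overlaps it and the 10 nearest rows on each side. Of these 21 rows, 19 are on the minus strand and 13 had at least 1 FPKM in at least 3 libraries and were tested; the other 8 stayed at or below 0.73 FPKM. Of the 13 tested rows, 4 rose in HN44 and none fell (limma on log2(FPKM + 1), Benjamini-Hochberg adjusted p under 0.05 over all genes). Over all 27140 tested genes 3.78% were called, 2.33% higher in HN44 and 1.44% lower, or 633 and 392 genes. After median-of-ratios scaling, which lowered the median log2 fold change of all genes from 0.17 to 0.02, these were 458 and 504 genes, and the same 4 neighbours passed. The 4 rows, like the pair itself, reached the expression minimum through their HN44 values alone, and 51.3% of the 376 genes of that kind were called higher. Of the 4, LOC106796447 and LOC100793122 lie inside the span of LOC100795233 in the RefSeq annotation. Whether they share reads with it was not tested. With no expression filter 4 of the 21 rows were called, all higher in HN44, where 1.87% of 41759 rows were called, 1.13% higher in HN44 and 0.735% lower.

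LOC100793122 (chr16:29261565-29266505) measured 4.37, 7.44 and 5.71 FPKM in HN44, against 0.42, 0.26 and 0.16 FPKM in SN14. No HN44 value came near an SN14 value, and the order HN44-2, HN44-3, HN44-1 was that of the pair. Since HN44-3 mostly lies between the other HN44 libraries, that order says little more than HN44-2 above HN44-1. Of all tested genes, 33.4% had HN44-2 above HN44-1. LOC100793122 rose by 2.40 ± 0.21 on the log2 scale (SE; limma adjusted p = 0.00271), with an FPKM ratio of 21.1. When HN44-3 was dropped after the expression filter, it was the 1 neighbour still under the threshold (limma adjusted p = 0.0268). That fit called 0.553% of genes, 0.387% higher in HN44 and 0.166% lower. The gene had entered the fit only because HN44-3 counted in the filter, so this is not a check free of HN44-3. With the filter applied again, too few libraries reached the minimum and the gene was not tested. Its role was not annotated in the sources used here.

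LOC106796447 (chr16:29259331-29261147), 417 bases from LOC100793122, measured 1.63, 1.18 and 1.73 FPKM in HN44, while each SN14 library listed it at 0. It rose in HN44 (limma adjusted p = 0.0093, but 0.0825 without HN44-3); no fold is given against values listed at 0. Unlike the pair it was lowest in HN44-2. Gene 100794705 (chr16:29333961-29339361) ends 5433 bases before LOC100795233. It measured 1.61, 3.61 and 2.82 FPKM in HN44, against 0.20, 0.24 and 0.21 FPKM in SN14. All HN44 libraries were above all SN14 libraries; it rose by 1.56 ± 0.23 (SE; limma adjusted p = 0.02), with an adjusted p of 0.125 without HN44-3 and of 0.0635 without SN14-3.

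On the other side, LOC100796826 (chr16:29436043-29441080) measured 1.74, 2.81 and 2.2 FPKM in HN44, against 0.23, 0.18 and 0.04 FPKM in SN14. It rose by 1.49 ± 0.18 on the log2 scale (SE; limma adjusted p = 0.0101, and 0.0814 without HN44-3). LOC100798421 (chr16:29436043-29472854) starts at the same base and covers it, so reads of these models may be shared. It measured 5.95, 9.90 and 7.94 FPKM in HN44, against 3.82, 0.52 and 0.45 FPKM in SN14. SN14-1 stood apart from the other SN14 libraries here. With it the log2 fold change was 2.00 ± 0.48 (SE; limma adjusted p = 0.068), and without it 2.56 ± 0.23 (SE; adjusted p = 0.00647).

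**Figure D3:**
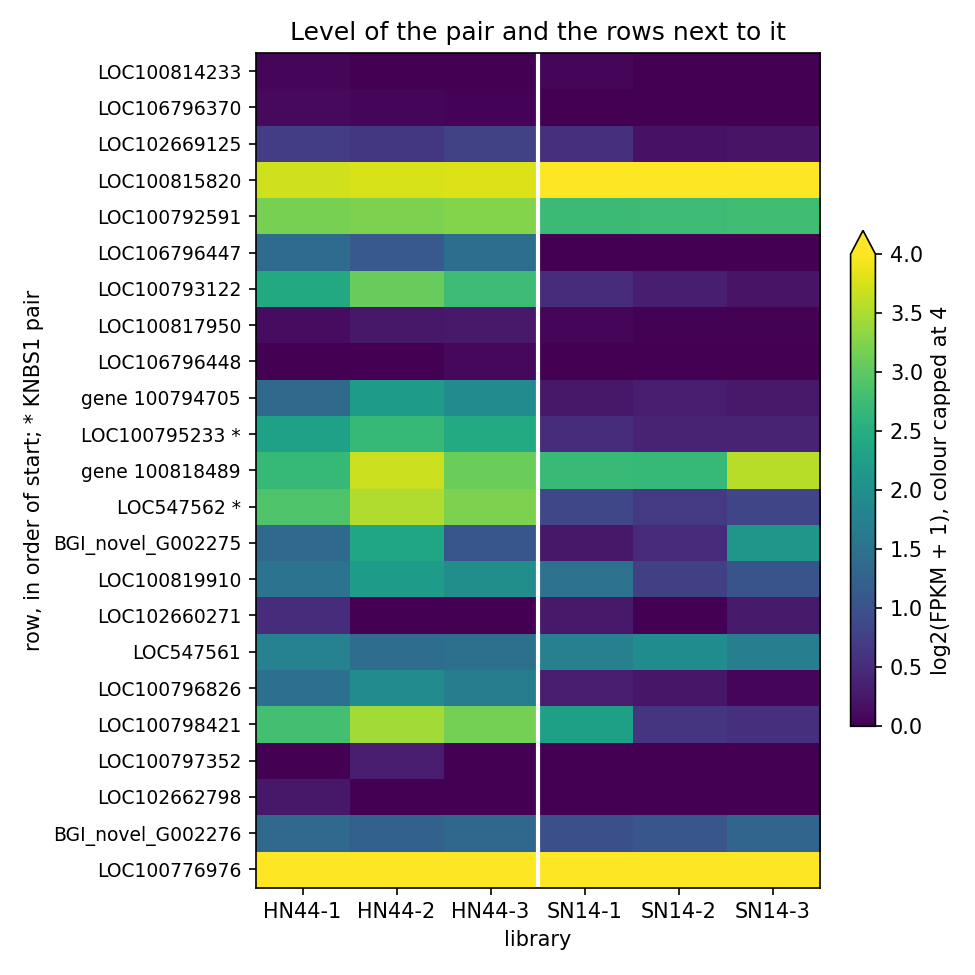
Level of the pair (asterisks) and the 21 rows next to it in each library, as log2(FPKM + 1) with the colour scale capped at 4; rows run in order of start and a white line parts HN44 from SN14. LOC100793122, gene 100794705, LOC100796826 and the pair are brighter in the HN44 libraries, while gene 100818489 and LOC547561 are not.

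The pair and the neighbours called higher in HN44 lay over 182 kb, from 29259331 to 29441080, and were not consecutive. The ends of this stretch follow from the calls, of which 1 was left when HN44-3 was dropped after the filter. With the filter applied again, the called neighbours were not tested. Outside the stretch, LOC100792591 and LOC100776976 also had all HN44 values above all SN14 values, and LOC100815820 had all below. LOC106796370 and LOC102669125, too low to test, had all above as well. So did LOC100798421, which reaches past the right end of the stretch. Among the called rows lie LOC100817950, at 0.10, 0.20 and 0.21 FPKM in the HN44 libraries against 0.04, 0.02 and 0.02 FPKM in the SN14 libraries, and LOC106796448, listed at 0 in all libraries but HN44-3. These were too low to test. To the right, LOC547561, on the plus strand, measured 2.43, 1.69 and 1.77 FPKM in HN44, against 2.35, 2.86 and 2.29 FPKM in SN14 (log2 fold change of -0.25 ± 0.17, SE; limma adjusted p = 0.381). LOC100819910, which overlaps gene 100818489 by its end, had a log2 fold change of 0.81 ± 0.26 (SE; limma adjusted p = 0.117). Expression on the flanks ranged widely, and 8 of the 21 rows stayed at or below 0.73 FPKM. Among the higher rows, LOC100815820 averaged 12.3 ± 0.219 FPKM in HN44 (SD, n = 2), against 17.2 ± 1.78 FPKM in SN14 (SD, n = 3). Its limma adjusted p was 0.136 with all libraries and 0.402 without HN44-3. At the right edge LOC100776976 averaged 216 ± 22.4 FPKM in HN44 (SD, n = 2), against 146 ± 22.3 FPKM in SN14 (SD, n = 3). Its limma adjusted p was 0.112 with all libraries and 0.368 without HN44-3. Of the 21 rows, tested or not, 11 had all HN44 values above all SN14 values, 1 had all below and 9 overlapped, where 17.6% and 9.9% of all 41759 rows lay above and below.

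Of the rows within 500 kb of the pair, 56 without the members, 30 were tested and 5 passed in limma, all higher in HN44. The 5 are the 4 neighbours above and LOC100798951, which measured 7.49, 8.81 and 8.11 FPKM in HN44, against 4.58, 2.98 and 4.21 FPKM in SN14. The last was near the threshold (limma adjusted p = 0.0499, log2 fold change 0.90 ± 0.19 SE) and passed under none of the 13 alternatives run, where its adjusted p ranged from 0.053 to 0.29. Over the chromosome, with the pair and the rows of this window included, 4.55% of 967 tested genes were called higher in HN44. In the plot of log2 fold change by distance the values of the rows beyond the 182 kb stretch lie on both sides of 0. Within the stretch LOC547561 was below 0 too, at -0.25 ± 0.17 (SE).

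**Figure D4:**
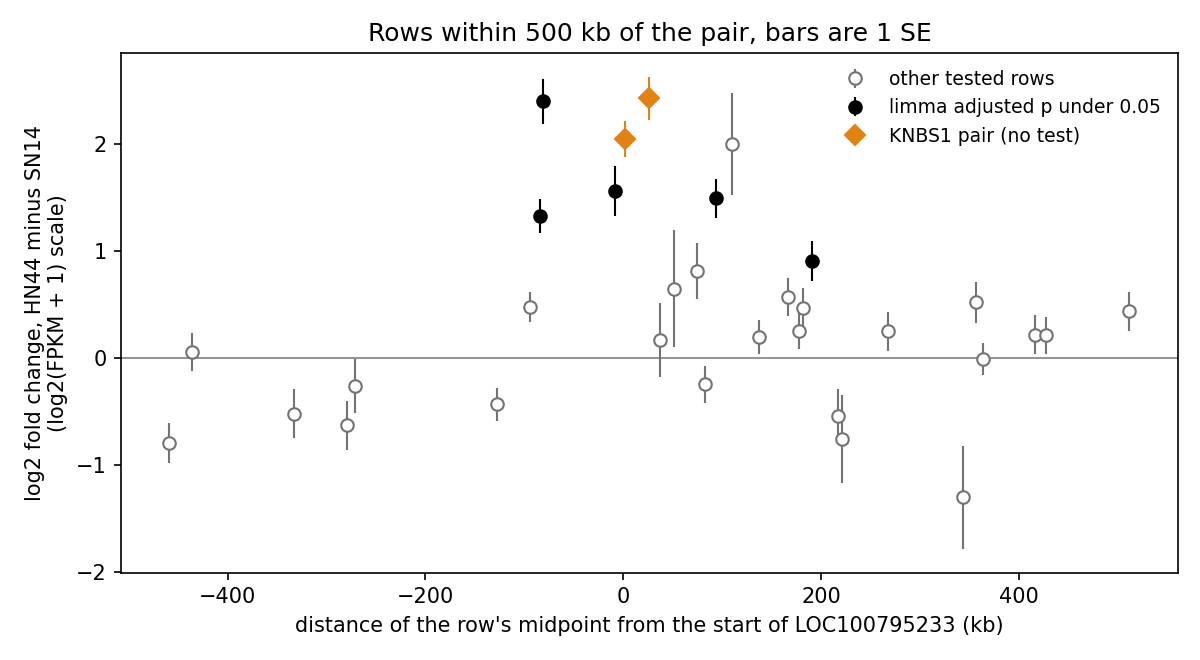
Log2 fold change, HN44 minus SN14, on the log2(FPKM + 1) scale with 1 SE, by distance of each row's midpoint from the start of LOC100795233 in kb, for the 30 tested rows within 500 kb. The pair (orange diamonds, 2.05 and 2.43) is shown without a test; filled circles are the 5 rows with a limma adjusted p under 0.05, all above 0.

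None of the other NBS-LRR genes found by name passed the test in the direction of the pair. The list held 4 other genes, all tested, of which none rose and 1 fell, where 3.78% of all tested genes were called and 1.44% fell; with 4 genes, 1 of them not of the class, the count says little. The median log2 fold change was -0.20, against 0.17 for all tested genes. KR3, a TIR-type NBS-LRR gene on chromosome 6, measured 2.24, 1.82 and 1.87 FPKM in HN44, against 9.02, 5.69 and 14.93 FPKM in SN14. It was lower in every HN44 library and fell by 1.78 ± 0.31 on the log2 scale (SE; limma adjusted p = 0.0333), with an adjusted p of 0.179 without HN44-3, 0.114 without HN44-1, 0.0654 without HN44-2 and 0.0672 without SN14-1. RSV3, a coiled-coil NBS-LRR gene of resistance to soybean mosaic virus, averaged 2.35 ± 0.72 FPKM in HN44 (SD, n = 2), against 2.36 ± 0.92 FPKM in SN14 (SD, n = 3; limma adjusted p = 0.941). KR1 averaged 1.93 ± 0.42 FPKM in HN44 (SD, n = 2), against 1.53 ± 0.95 FPKM in SN14 (SD, n = 3; limma adjusted p = 0.49). The fourth, LOC100812666 with the synonym Rsv4, entered by its name although Rsv4 is known to encode a protein of the RNase H family; it averaged 3.03 ± 0.21 FPKM in HN44 (SD, n = 2), against 4.46 ± 1.00 FPKM in SN14 (SD, n = 3; limma adjusted p = 0.195).

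Genes that act with or after resistance proteins gave 1 call among 24 tested of 27 listed, higher in HN44, a share of 4.17% beside the 3.78% of all genes. Their median log2 fold change was 0.28, against 0.17 over all tested genes. The gene was HSP90A1, for a chaperone of the HSP90 class that helps fold NBS-LRR receptors, which measured 12.27, 6.6 and 10.76 FPKM in HN44, against 1.76, 3.83 and 1.66 FPKM in SN14. It rose by 1.69 ± 0.31 on the log2 scale (SE, limma adjusted p = 0.0401). HSP90A1 did not pass without HN44-3 (adjusted p = 0.208), HN44-1 (0.144), SN14-1 (0.0824) or SN14-3 (0.0909). Of the other HSP90 genes listed, HSP90-1 (limma adjusted p = 0.129) and HSP90-2 (0.692) did not pass, and HSP90A2 was too low to test. EDS1-2, one of the EDS1 genes that relay signals of TIR-type receptors, averaged 5.0 ± 1.68 FPKM in HN44 (SD, n = 2), against 2.68 ± 0.90 FPKM in SN14 (SD, n = 3). The limma adjusted p of EDS1-2 was 0.138 with all libraries and 0.374 without HN44-3. Its partner PAD4 averaged 7.34 ± 0.42 FPKM in HN44 (SD, n = 2), against 6.83 ± 4.08 FPKM in SN14 (SD, n = 3; limma adjusted p = 0.725). RIN4a, whose product is a host protein guarded by NBS-LRR receptors in Arabidopsis, averaged 21.2 ± 3.39 FPKM in HN44 (SD, n = 2), against 19.6 ± 8.60 FPKM in SN14 (SD, n = 3; limma adjusted p = 0.715). The co-chaperone gene RAR1-1 averaged 5.88 ± 1.72 FPKM in HN44 (SD, n = 2), against 4.36 ± 1.19 FPKM in SN14 (SD, n = 3; limma adjusted p = 0.295).

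Genes with the pattern most like that of each member were sought over the 6 libraries among 26734 tested genes averaging 1 FPKM or more, by Pearson correlation of log2(FPKM + 1). The 5 nearest to LOC547562 had r from 0.9983 to 0.9990: BGI_novel_G002184 on chromosome 15, BGI_novel_G000390 on chromosome 3, LOC100804798 on chromosome 8, LOC100306374 on chromosome 10 and, at place 5, LOC100795233. The 5 nearest to LOC100795233 had r from 0.9983 to 0.9991: LOC100812708 on chromosome 19, gene 100799777 on chromosome 13, BGI_novel_G002184, the neighbour LOC100793122 and LOC100805950 on chromosome 11; LOC547562 was in place 6. Most of these genes lie on other chromosomes than the pair. LOC100804798, for example, measured 24.68, 30.50 and 27.53 FPKM in HN44, against 15.17, 14.52 and 14.83 FPKM in SN14, a far smaller ratio in the same order. The 6 points fall into the 2 genotypes and HN44-3 lies between the other HN44 libraries, so such values describe a shared split and order and carry no test.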

How the data were processed

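Per the file headers, the authors deposited FPKM for each gene and library beside its coordinates. RSEM 1.2.12, Bowtie2 2.2.5, DESeq2 1.4.5 and HISAT2 2.0.4 appear in the submitters' processing notes, with no role given. No genome build is named in these sources, so coordinates are those of the table. Symbols, synonyms and chromosome numbers came from RefSeq (Glycine_max_v4.0), which matched 37544 rows.

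limma 3.58.1 with a variance trend (R 4.3.3) was run on log2(FPKM + 1) for the 27140 genes that reached 1 FPKM in 3 or more libraries, HN44 minus SN14, without covariates, and was tested on simulated data. Fold changes on this scale understate the change of low genes. P-values were Benjamini-Hochberg adjusted over all tested genes (threshold 0.05). The pair was among these genes in the fit, but no test of it is given. The pair and the gene lists were chosen with earlier results of these data known. Named are the pair, rows next to it, called rows within 500 kb, the NBS-LRR list, called immune genes with examples of known role chosen after their values were seen, and the 5 genes nearest in pattern. In the immune list ADR11 and ADR12 were not taken, since another digit follows the name.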

Additional observations from a re-analysis of the deposited data

How the results depend on the processing

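The replicate numbers do not pair the libraries: deviations of libraries with the same number correlated at -0.22, -0.44 and 0.03. With the number as a block, 174 genes passed against 1025, with 1 of the rows next to the pair, 1 within 500 kb and 0 of both lists. Leaving out 1 library on the same genes gave 150 to 961 genes, with 150 without HN44-3, 276 without HN44-1 and 478 without SN14-3. It gave 1 to 5 rows next to the pair, 1 to 5 rows within 500 kb (3 without SN14-3) and 0 to 1 in each list. Without HN44-3 and with the filter applied again, 15 of 26277 genes passed, with 0 of both sets of rows and of both lists (unadjusted p under 0.05: 1 next row, 4 within 500 kb, 1 in each list); the pair and the 4 called neighbours were then not tested, since only 2 libraries reached the minimum. With no filter 0 genes of either list passed (unadjusted: 1 NBS-LRR and 8 immune genes) and 779 genes in all. A filter on the mean, added after seeing the data, left 3 rows within 500 kb. A pseudocount of 0.1 gave 3.34 for LOC547562 and 3.40 for LOC100795233; quantile normalization gave 1.89 for LOC100795233. Leaving out 1 library, the log2 fold change of gene 100818489 ranged from -0.10 (without HN44-2) to 0.46 (without SN14-3). By Spearman correlation 99 and 96 genes tied at the highest value for LOC547562 and LOC100795233, with 1 and 2 of the 5 nearest genes among them. Where no value is given for why a call was lost, the cause was not tested.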

Other observations

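The pathogenesis-related gene PR1-8 on chromosome 15, from a family whose members mark salicylic acid responses in Arabidopsis, was chosen after its values were seen. In libraries 1, 2 and 3 it measured 5.32, 6.40 and 5.85 FPKM in HN44, against 2.28, 222 and 522 FPKM in SN14. The SN14 libraries thus lay on both sides of the HN44 range (limma adjusted p = 0.246). Without SN14-1 the log2 fold change was -5.64 (adjusted p = 0.00245), the 1 call in the immune list in that fit. LOC547562, which was selected on lower FPKM in SN14 than in HN44, stayed between 0.60 and 0.80 FPKM in the same SN14 libraries. A relation between LOC547562 and PR1-8 was not tested. PR1-6, on the same chromosome, measured 10.04, 1.31 and 5.67 FPKM in HN44, against 0.53, 13.60 and 3.07 FPKM in SN14. PR1-8 and PR1-6 had their lowest value of the 6 libraries in SN14-1. The same held for PR10, PR-10 and PAD4, at 0.71, 0.58 and 2.75 FPKM in SN14-1. It also held for the chaperone gene HSP90-2 and for LOC100305422, at 17.97 and 16.60 FPKM in SN14-1. Not all members of the list shared this. PR1-7, on the same chromosome as PR1-6, was lowest in HN44-2, at 6.13 FPKM against 11.87 FPKM in SN14-1. NDR1A, RIN4a and RIN4d had their highest value in SN14-1, at 9.87, 28.93 and 2.83 FPKM.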
